A study of Mus musculus with 6 samples.

Results

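The 10 genes described here encode surface proteins by which early B cells are staged: Kit, Flt3, Il2ra, Bst1, Enpep, Cd93, Spn, Cd24a, Cd34 and Ly6d. They were chosen by gene symbol, as markers of the progenitor, pro-B and pre-B stages, and each had 1 probe set, so the set is 10 of 19938 genes measured. Cells carrying a fluorescent reporter of Rag2 were sorted from the small intestinal lamina propria, the connective tissue under the gut epithelium, and from the bone marrow. The sample titles call these cells RAG2+ B cells. All mice were of the strain RAG2-GFP/129Sve, were 17 to 25 days old and the labels name no treatment. Each tissue gave 3 pools from independent experiments with 8 to 12 mice each, and each pool was hybridised to 1 array. The stated question was how expression compares between the 2 tissues. The sort used the reporter, whose protein can outlast transcription of the gene, so a pool may hold cells of several stages. In such bulk RNA fewer cells of a type and less RNA per cell cannot be told apart.

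B cells form from progenitors in steps that were defined by antibodies to surface proteins. The receptor tyrosine kinases KIT and FLT3 mark progenitors and the earliest B lineage cells, together with CD34 and the GPI-anchored protein LY6D, which marks lymphoid progenitors biased to the B lineage. CD43, encoded by Spn, is carried by pro-B cells and is lost as cells become small pre-B cells, while BP-1, encoded by Enpep, and CD25, encoded by Il2ra, appear on pre-B cells. CD93, the antigen of the AA4.1 antibody, stays on the surface until cells have become immature B cells, and CD24, encoded by Cd24a, rises on the surface as cells leave the earliest pro-B stage.

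Values are log2 RMA values, where a step of 1 is a doubling of signal. Probe brightness differs between probe sets, so values do not rank different genes by amount of RNA. The words dim, bright and like mean level refer to array signal only. The median over all genes lay between 5.39 and 5.62 in the 6 arrays. The lamina propria arrays did not form a tight group. Pools 1 and 2 had narrow distributions, with interquartile ranges of 2.00 and 1.94 against 2.41 to 2.47 in the other 4 arrays, and pool 3 correlated with the marrow arrays across genes at 0.954 to 0.966, against 0.766 to 0.832 for pools 1 and 2 with the other 4 arrays (genes are not independent replicates). The 10 measured B lineage genes together averaged 9.02 to 9.56 in the lamina propria pools and 9.52 to 10.10 in the marrow pools. The mean was lower in the lamina propria for 9 of the 10, against 32.4% of all genes. Ebf1 had means of 10.52 and 10.74 and Vpreb1 of 11.77 and 11.83. Ptprc averaged 8.15 and 9.63, with 6.58 in lamina propria pool 1. Of the recombinase genes, Rag2, the gene of the sorting reporter, averaged 5.83 in the lamina propria, near the array medians, and 8.18 in the marrow, and Rag1 averaged 9.97 and 11.02, both lower without overlap (limma adjusted p = 0.155 and 0.307). Differences are lamina propria minus bone marrow.

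Cd93 stood lower in every lamina propria pool and Cd34 higher, while the other 8 markers overlapped between the tissues. None of the 10 markers passed an adjusted p of 0.05 over all genes in limma, where 0% of all genes were called higher and 0% lower and the smallest adjusted p was 0.155. At an unadjusted p under 0.05 there were 2 of the 10, against 5.53% of all genes higher and 8.15% lower (13.7% in all). The tissues did not overlap for 1 marker that was higher and 1 that was lower, against 14.8% and 7.27% of all genes (22.1% in either direction), so the count of markers without overlap was near the background. Of the 10 differences 6 were negative, against 32.4% of all genes, and 4 were positive, against 67.6%. Their median was -0.20 against 0.22 over all genes. Genes of like mean level, within 0.5 log2 units of a marker over both tissues, had a median of -0.035 (median over the 10 markers). Without lamina propria pool 3, limma called 2 of the 10, Cd93 and Cd34, beside 24.1% of all genes called higher and 12.1% lower (36.2% in all).

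**Figure D1:**
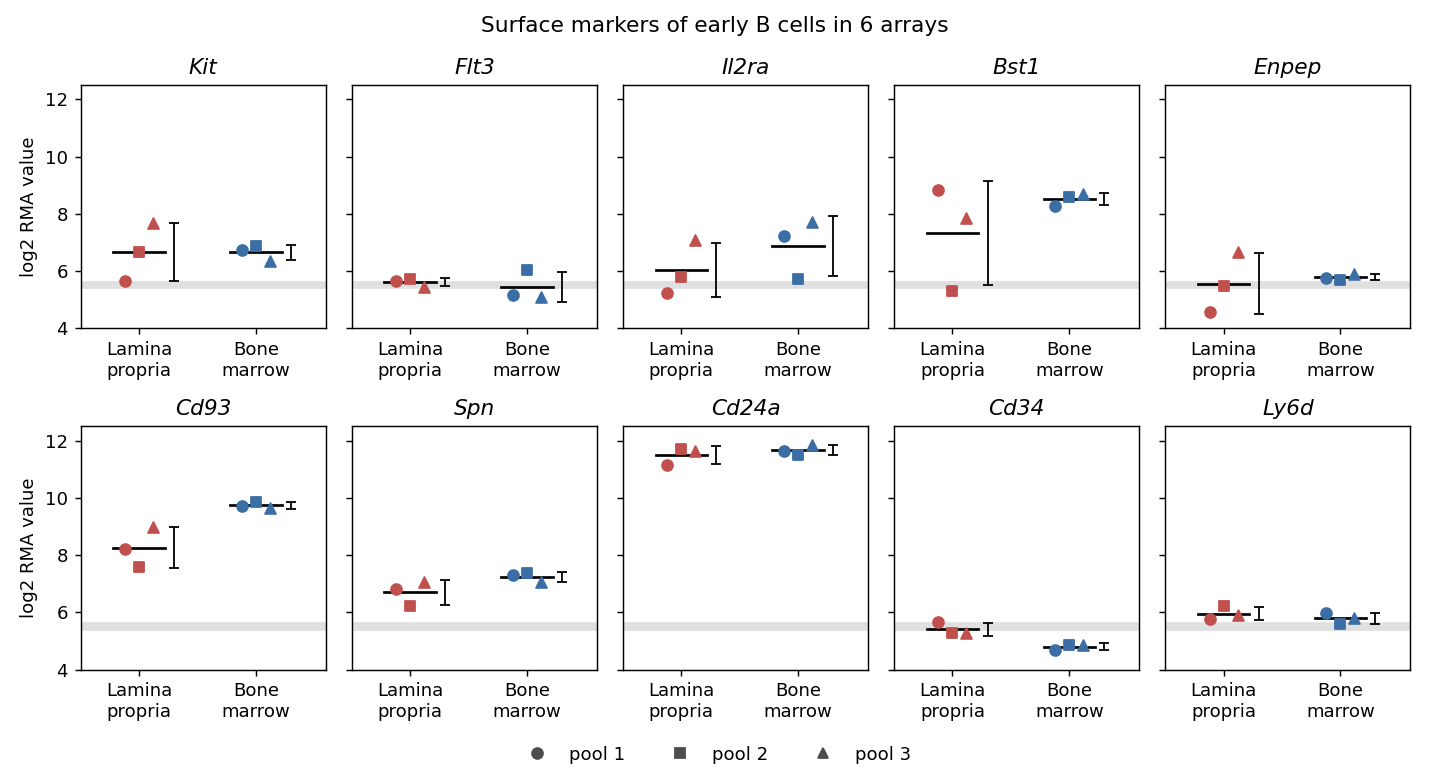
Log2 RMA values (vertical axis) of the 10 markers in each of the 6 arrays, by tissue (horizontal axis), with the mean (bar) and SD (whisker, n = 3) and the range of the array medians over all genes in grey. Cd93 was lower in every lamina propria pool than in any marrow pool and Cd34 higher, and Kit, Bst1 and Enpep were spread far more widely among the lamina propria pools than among the marrow pools.

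Among the growth factor receptors, Kit, which binds stem cell factor, had values of 5.65, 6.67 and 7.69 in lamina propria pools 1, 2 and 3 and of 6.73, 6.87 and 6.35 in the marrow pools. Pool 1 lay below all marrow pools, pool 2 among them and pool 3 above them. The means of 6.67 ± 1.02 and 6.65 ± 0.27 (SD, n = 3 each) differed by 0.02 (95% interval -1.11 to 1.15, limma adjusted p = 0.98). The mean difference of Kit was thus near 0 with lamina propria pools on both sides, and the interval allows a change of over 1 log2 unit either way. The sign turned without pool 3, to -0.49 (limma adjusted p = 0.276).

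Enpep, a membrane aminopeptidase that cleaves angiotensin and is the BP-1 antigen of pre-B cells, repeated that order. Its values were 4.56, 5.46 and 6.66 in the lamina propria and 5.77, 5.69 and 5.90 in the marrow. Pools 1 and 2 lay below all marrow pools and pool 3 above them. The means of 5.56 ± 1.06 and 5.79 ± 0.11 (SD, n = 3 each) differed by -0.23 (95% interval -1.36 to 0.91, limma adjusted p = 0.75). The sign turned without pool 1, to 0.28, and pool 3 alone lay 0.88 above the marrow mean. The lamina propria SD was 9.88 times that of the marrow for Enpep and 3.76 times for Kit.

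Kit and Enpep both rose from lamina propria pool 1 to pool 3, but they did not move together in the marrow. There Kit was lowest in pool 3, at 6.35, where Enpep was highest, at 5.90. Other listed genes had the same lamina propria order, such as Jak1 (6.37, 8.37 and 9.82) and Ptprc (6.58, 8.26 and 9.60). After each gene was centred on its mean over the 6 arrays, the root mean square distance between Kit and Enpep was 0.26. Their own root mean square excursions were 0.61 and 0.62. The pair Cd24a and Ly6d was closer, at 0.23, but those genes themselves moved by 0.22 and 0.19. The other pair nearer to each other than the size of both excursions was Cd93 and Il2ra, at 0.83 against 0.85 and 0.92. The 250 bases upstream of the start site are shown for Kit and Enpep because of their shared order of lamina propria pools. The window of Cd34 is shown because it is the marker that was higher in each lamina propria pool. These windows were picked after the values were seen and are from RefSeq (GRCm38.p6). Its promoter table gave entries for 6 of the 10 markers, with 2 neighbouring starts for Kit of which the first is shown. Capitals mark matches on either strand to the motifs named after the sequences, and the coordinates are chr5:75574737-75574986 (plus strand) for Kit, chr3:129332750-129332999 (minus strand) for Enpep and chr1:194938571-194938820 (plus strand) for Cd34.
Kit: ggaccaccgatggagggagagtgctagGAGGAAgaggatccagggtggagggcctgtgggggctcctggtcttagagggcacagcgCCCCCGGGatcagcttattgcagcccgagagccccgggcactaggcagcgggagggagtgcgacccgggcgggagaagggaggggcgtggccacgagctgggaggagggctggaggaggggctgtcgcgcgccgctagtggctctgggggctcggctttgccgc
Enpep: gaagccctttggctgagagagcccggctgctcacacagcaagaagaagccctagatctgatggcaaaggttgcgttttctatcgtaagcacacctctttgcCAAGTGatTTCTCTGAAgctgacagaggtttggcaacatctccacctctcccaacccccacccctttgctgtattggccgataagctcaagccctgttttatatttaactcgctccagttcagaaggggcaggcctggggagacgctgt
Cd34: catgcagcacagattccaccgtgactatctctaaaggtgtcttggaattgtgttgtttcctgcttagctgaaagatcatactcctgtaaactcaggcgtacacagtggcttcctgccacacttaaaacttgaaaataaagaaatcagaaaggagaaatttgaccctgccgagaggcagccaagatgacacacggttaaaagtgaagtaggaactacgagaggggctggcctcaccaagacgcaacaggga

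Both strands were searched for CCCNNGGG, the core of EBF1 sites, CANNTG, the E-box bound by E proteins, TTCNNNGAA, the STAT palindrome, GAGGAA, an ETS core like that of PU.1, and TGTGGT, the RUNX core. Of all 32851 promoter windows of this length, 11.82%, 66.22%, 7.02%, 23.25% and 14.05% held the respective motif. The Kit window held 1 EBF1 core and 1 ETS core, and the Enpep window 1 E-box and 1 STAT palindrome next to each other, without overlap. No motif was shared by the Kit and Enpep windows, and the Cd34 window held none of these letters. G and C made up 70.8% of the Kit window, 52.4% of the Enpep window and 46.4% of the Cd34 window, against a median of 52.4% over all windows. A match is a string of letters and not a measured site.

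Flt3, the receptor of FLT3 ligand, sat near the array medians throughout. Its values were 5.64, 5.72 and 5.45 in the lamina propria and 5.16, 6.05 and 5.11 in the marrow. All lamina propria pools lay within the range of the marrow pools, of which pool 2 stood highest. The difference was 0.16 (95% interval -0.53 to 0.85, limma adjusted p = 0.704), and without marrow pool 3 it was -0.003.

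Il2ra, the alpha chain of the interleukin-2 receptor and a marker of pre-B cells after the pre-B receptor checkpoint, varied widely in both tissues. It had values of 5.25, 5.80 and 7.07 in the lamina propria and 7.22, 5.71 and 7.73 in the marrow. Marrow pool 2 lay near lamina propria pool 2, and lamina propria pool 1 lay below all marrow pools. Lamina propria pool 3 lay close to the other marrow pools. The means of 6.04 ± 0.93 and 6.89 ± 1.05 (SD, n = 3 each) differed by -0.85 (95% interval -2.31 to 0.61, limma adjusted p = 0.417). Without marrow pool 2 the difference was -1.43 (limma adjusted p = 0.601), without marrow pool 3 it was -0.43, and in lamina propria pool 3 alone it was 0.18. Marrow pool 2 also carried the highest S100a9, a neutrophil protein, at 9.26 against 6.56 and 6.68 in the other marrow pools and 5.30 to 5.63 in the lamina propria; the part of such cells in the low Il2ra value was not tested.

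Of the enzymes, Bst1, an ADP-ribosyl cyclase and the BP-3 antigen of pro-B and pre-B cells, had the widest scatter. Its values were 8.84, 5.29 and 7.86 in the lamina propria and 8.27, 8.60 and 8.68 in the marrow. Pool 1 lay above all marrow pools, and pools 2 and 3 lay below them, pool 2 by far. The means of 7.33 ± 1.83 and 8.52 ± 0.22 (SD, n = 3 each) differed by -1.19 (95% interval -3.07 to 0.69, limma adjusted p = 0.398). This difference rested on pool 2, and without it was -0.17. The lamina propria range of 3.54 was the largest among the 10 markers.

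Among the adhesion proteins, Cd93, a C-type lectin family transmembrane receptor, had values of 8.21, 7.57 and 8.99 in the lamina propria and 9.72, 9.87 and 9.64 in the marrow. All lamina propria pools lay below all marrow pools, with a gap of 0.64 between the nearest. The means of 8.26 ± 0.71 and 9.74 ± 0.12 (SD, n = 3 each) differed by -1.48 (SE 0.36, 95% interval -2.31 to -0.65), or 2.80-fold lower, with an unadjusted limma p of 0.0037 and an adjusted p of 0.299. Pool 3, the array most like the marrow arrays, was 0.75 below the marrow mean. Without pool 3 the difference was -1.85 (limma adjusted p = 0.0123), and with pool 3 as the sole lamina propria array, assumed to vary like the marrow pools, limma gave an adjusted p of 0.475. Leaving out pool 2, the lowest, gave -1.14.

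Cd34, a sialomucin of progenitors and of endothelium, was dim. Its values were 5.66, 5.27 and 5.28 in the lamina propria and 4.68, 4.87 and 4.87 in the marrow, and of these 1, that of lamina propria pool 1, lay above the median of its array. All lamina propria pools lay above all marrow pools, by at least 0.40. The means of 5.40 ± 0.22 and 4.80 ± 0.11 (SD, n = 3 each) differed by 0.60 (SE 0.21, 95% interval 0.11 to 1.09), with an unadjusted limma p of 0.0223 and an adjusted p of 0.356. It was 0.66 without pool 3 (limma adjusted p = 0.0399) and 0.48 in pool 3 alone (limma adjusted p = 0.691).

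Other cell types that carry CD34 or CD93 were followed by their markers. Of 7 endothelial markers 6 had a positive difference and 3, Cdh5, Emcn and Tek, did not overlap between the tissues, at 0.70, 0.55 and 0.48, against 67.6% of all genes positive and 14.8% higher without overlap. Their median was 0.48, against 0.335 for genes of like level, those within 0.5 log2 units in mean over both tissues. Pecam1, which B lineage cells also express, differed by -1.14. The mean level of the 7 ranged from 5.23 to 5.53 in the lamina propria pools and from 5.15 to 5.22 in the marrow pools. The difference of Cd34 thus had the sign of most endothelial markers and that of Cd93 the opposite sign, and the part of endothelial RNA in the Cd34 value was not tested.

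Spn, a heavily glycosylated sialomucin of pro-B cells and T cells, had values of 6.81, 6.23 and 7.08 in the lamina propria and 7.29, 7.37 and 7.05 in the marrow. Pools 1 and 2 lay below all marrow pools, and pool 3 exceeded the lowest of them by 0.03. The means of 6.70 ± 0.43 and 7.24 ± 0.17 (SD, n = 3 each) differed by -0.53 (95% interval -1.16 to 0.09, limma adjusted p = 0.356). Without pool 2 the difference was -0.29. T cells also carry Spn and Il2ra RNA. Of 8 T cell markers 8 had a positive difference, against 67.6% of all genes. Of these 4, Cd3e, Cd3g, Cd4 and Cd8a, were higher without overlap, against 14.8% of all genes. The median of the 8 was 0.34 against 0.29 for genes of like mean level. Their mean level was 4.85 to 5.30 in the lamina propria pools and 4.70 to 4.82 in the marrow pools. The part of T cells in the Spn and Il2ra values was not tested.

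Cd24a, a small GPI-anchored mucin-like protein, was bright in every array. Its values were 11.14, 11.70 and 11.63 in the lamina propria and 11.62, 11.51 and 11.85 in the marrow. Pool 1 was lowest of all 6 arrays and the other pools lay within the marrow range. The difference was -0.17 (95% interval -0.71 to 0.38, limma adjusted p = 0.628), and its sign turned with each array centred on its 75th percentile, to 0.03. Ly6d had values of 5.76, 6.20 and 5.90 in the lamina propria and 5.98, 5.60 and 5.80 in the marrow. The tissues overlapped, and the difference was 0.16 (95% interval -0.35 to 0.67, limma adjusted p = 0.62). The intervals of Cd24a and Ly6d were narrower than those of Kit, Bst1, Enpep and Il2ra.

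**Figure D2:**
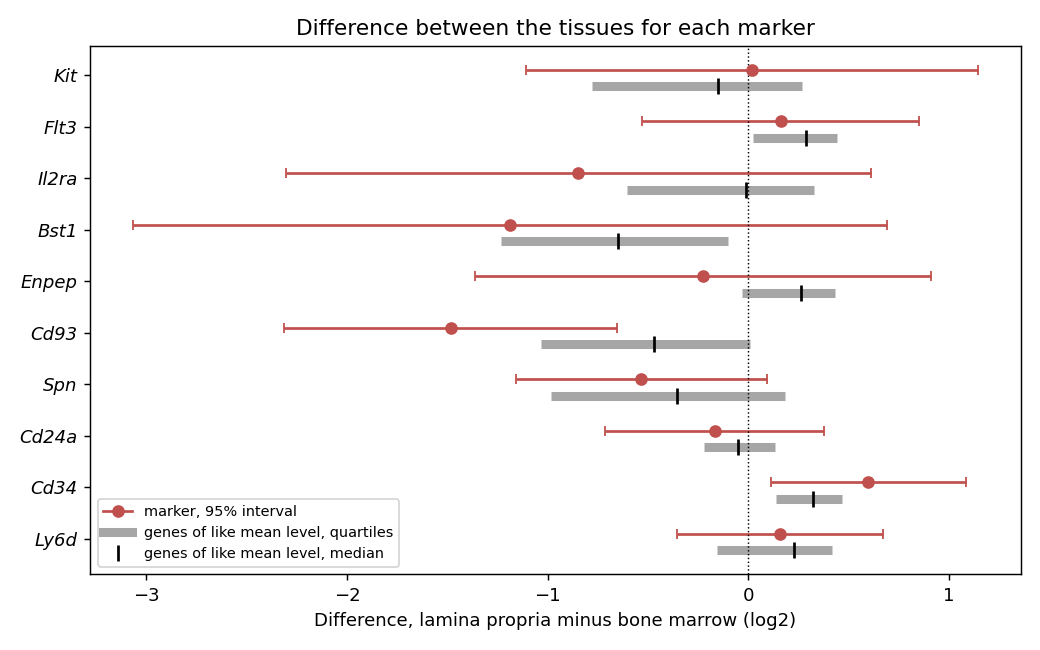
Difference between the tissues for each marker (horizontal axis, log2, lamina propria minus bone marrow) with its 95% interval from limma in red, over the quartiles (grey) and median (black mark) of the differences of genes of like mean level. The intervals of Cd93 and Cd34 leave out 0, and those of Bst1, Il2ra, Kit and Enpep are wide.

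Because values in pools 1 and 2 were compressed, each marker was also set beside the genes whose mean level over both tissues lay within 0.5 log2 units of its own. The 456 genes like Cd93 had a median difference of -0.47 with quartiles of -1.03 and 0.01, and Cd93, at -1.48, lay below the lower quartile. In pool 3 those genes lay 0.06 above their marrow means and Cd93 lay 0.75 below its own. The 5461 genes like Cd34 had a median of 0.33 and an upper quartile of 0.47, below the 0.60 of Cd34. In pools 1, 2 and 3 they lay 0.48, 0.47 and -0.02 from their marrow means, and Cd34 0.85, 0.47 and 0.48, so that Cd34 matched them in pool 2 and exceeded them in pools 1 and 3. The 4 markers outside the quartiles of their like were Cd93, Cd34, Enpep and Il2ra. Bst1 lay within the quartiles of its like, whose median was -0.65, and so did Spn, whose like had a median of -0.35. These are descriptions with no test.

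**Figure D3:**
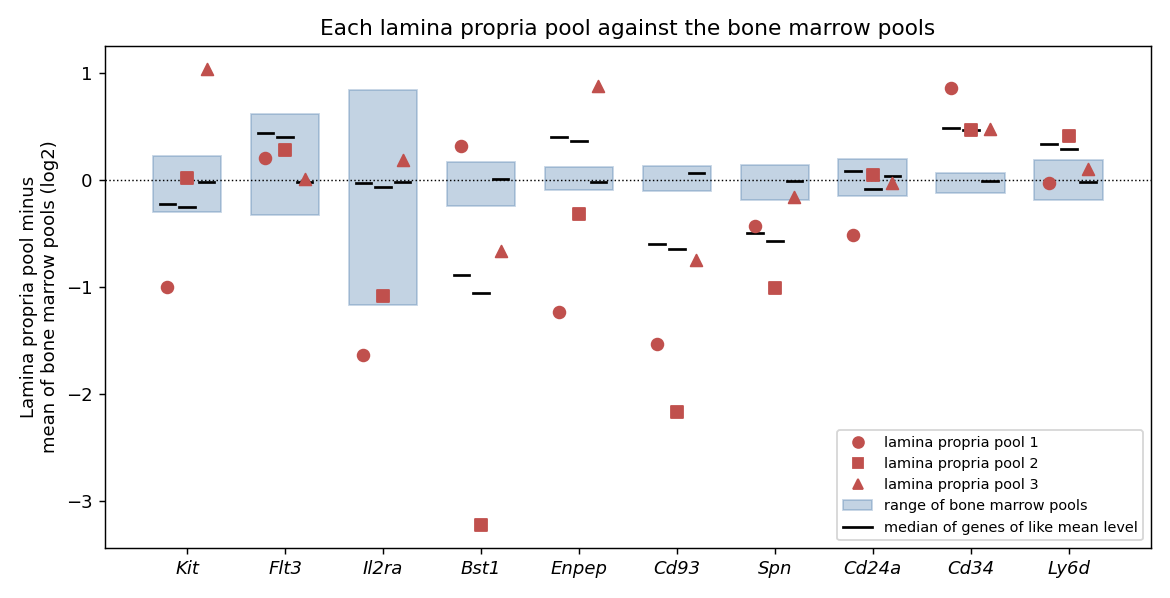
Each lamina propria pool as the difference from the mean of the marrow pools (vertical axis, log2) for each marker (horizontal axis), with the range of the marrow pools in blue and the median of genes of like mean level in the same pool in black. Kit and Enpep ran from below the marrow range in pool 1 to above it in pool 3, and Cd93 was below the range in all 3 pools.

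The pools differed in where they placed the markers. In pool 1, 2 of the 10 lay above the marrow range, 2 inside and 6 below, against 59.7%, 16.2% and 24.1% of all genes. In pool 2 the counts were 2, 4 and 4, against 58.4%, 16.4% and 25.2%. In pool 3 they were 3, 5 and 2, against 24.8%, 48.5% and 26.7%. The markers above the range in pool 3 were Kit, Enpep and Cd34, and those below it Cd93 and Bst1. The median over the 10 markers was -0.47, -0.15 and 0.06 from the marrow mean in pools 1, 2 and 3, against 0.31, 0.31 and -0.01 over all genes. The median of the markers was thus below that of all genes in pools 1 and 2 and close to it in pool 3. Between the tissues, the markers' median of -0.196 lay nearer to the -0.035 of genes of like mean level than to the 0.222 of all genes. Singly, 8 of the 10 markers had a difference below the median of their own like-level genes and 2 above it. Scatter was larger in the lamina propria for 8 of the 10, and for 81.8% of all genes, with Flt3 and Il2ra as the exceptions among the markers.

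Genes with the most similar patterns were found by the root mean square distance of centred values over the 6 arrays, for the 9 markers whose mean in either tissue exceeded the median of all genes, thus leaving out Cd34. For Kit they were Mcm5 (distance 0.16) and Map3k3 (0.18), and for Enpep Gpalpp1 (0.13) and Hdgf (0.14). For Cd93 they were Rprd2 (0.065) and Zfp652 (0.083), and for Bst1 Strn3 (0.17) and Ndufb5 (0.22). For Il2ra, Fcrla (0.20) was nearer than Swap70 (0.33), against an excursion of Il2ra itself of 0.92, and both were lower in marrow pool 2 than in the other marrow pools. Mcm5, at 7.02, 7.88 and 8.82 in the lamina propria and 8.08, 7.77 and 7.63 in the marrow, had the same order of lamina propria pools as Kit. The nearest genes were Cdca5 and Chil3 for Flt3, Cyb5b and Glb1 for Spn, Gins3 and Zfp442 for Cd24a and Timeless and Cep57 for Ly6d, at 0.049 to 0.089. With 6 arrays and 19938 genes, near patterns are common.

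The ligands, co-receptors and signalling proteins of the growth factor receptors were then read from a list of 24 genes, of which 21 were measured. In limma 0 were higher and 0 lower (2 at an unadjusted p under 0.05), and 11 differences were positive and 10 negative. The median was 0.00, against 0.22 over all genes and -0.24 for genes of like mean level. The tissues did not overlap for 4, all higher in the lamina propria, against 14.8% of all genes higher and 7.27% lower without overlap. Grb2, the adaptor that links receptor tyrosine kinases to RAS, had values of 7.74, 8.96 and 7.33 in the lamina propria and between 6.98 and 7.10 in the marrow. All lamina propria pools lay above all marrow pools, and the difference was 0.98 (95% interval 0.03 to 1.92, limma adjusted p = 0.356). Socs3, a feedback inhibitor of cytokine receptors, differed by 0.86 (95% interval 0.33 to 1.39, limma adjusted p = 0.319). Without pool 3, limma called 6 of the 21, against 36.2% of all genes.

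Relatives, ligands and cytoskeletal anchors of the other markers formed a list of 20, of which 15 were measured. In limma 0 were higher and 0 lower (1 at an unadjusted p under 0.05), and 11 differences were positive. The median was 0.25, against 0.16 for genes of like mean level. Mmrn2, a matrix protein that binds CD93, differed by 0.41 with no overlap (95% interval -0.16 to 0.98, limma adjusted p = 0.372), in the direction opposite to Cd93. Selplg, the selectin ligand PSGL-1, had values of 5.98, 6.06 and 6.47 in the lamina propria and 7.44, 7.37 and 6.54 in the marrow. All lamina propria pools lay below all marrow pools, though pool 3 lay near the lowest of them, and the difference was -0.95 (95% interval -1.65 to -0.25, limma adjusted p = 0.356). Ly6k, of the same family as Ly6d, differed by 0.25 with no overlap. Without pool 3, limma called 5 of the 15, against 36.2% of all genes.

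Of 19 further surface proteins by which B cell stages are told apart, 18 were measured. In limma 0 were higher and 0 lower (2 at an unadjusted p under 0.05), and 10 differences were positive. The median was 0.14, as it was for genes of like mean level. Cd27, a TNF receptor family protein of lymphoid progenitors and of memory cells, had values of 5.62, 5.23 and 5.28 in the lamina propria and 6.89, 6.33 and 5.70 in the marrow. All lamina propria pools lay below all marrow pools, and the difference was -0.93 (95% interval -1.68 to -0.17, limma adjusted p = 0.356). Il7r, the receptor chain for interleukin-7, was likewise lower without overlap, at -2.46, and Cd22, an inhibitory lectin of later B cells, higher without overlap, at 0.43 (limma adjusted p = 0.377). Without pool 3, limma called 3 of the 18, against 36.2% of all genes.

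**Figure D4:**
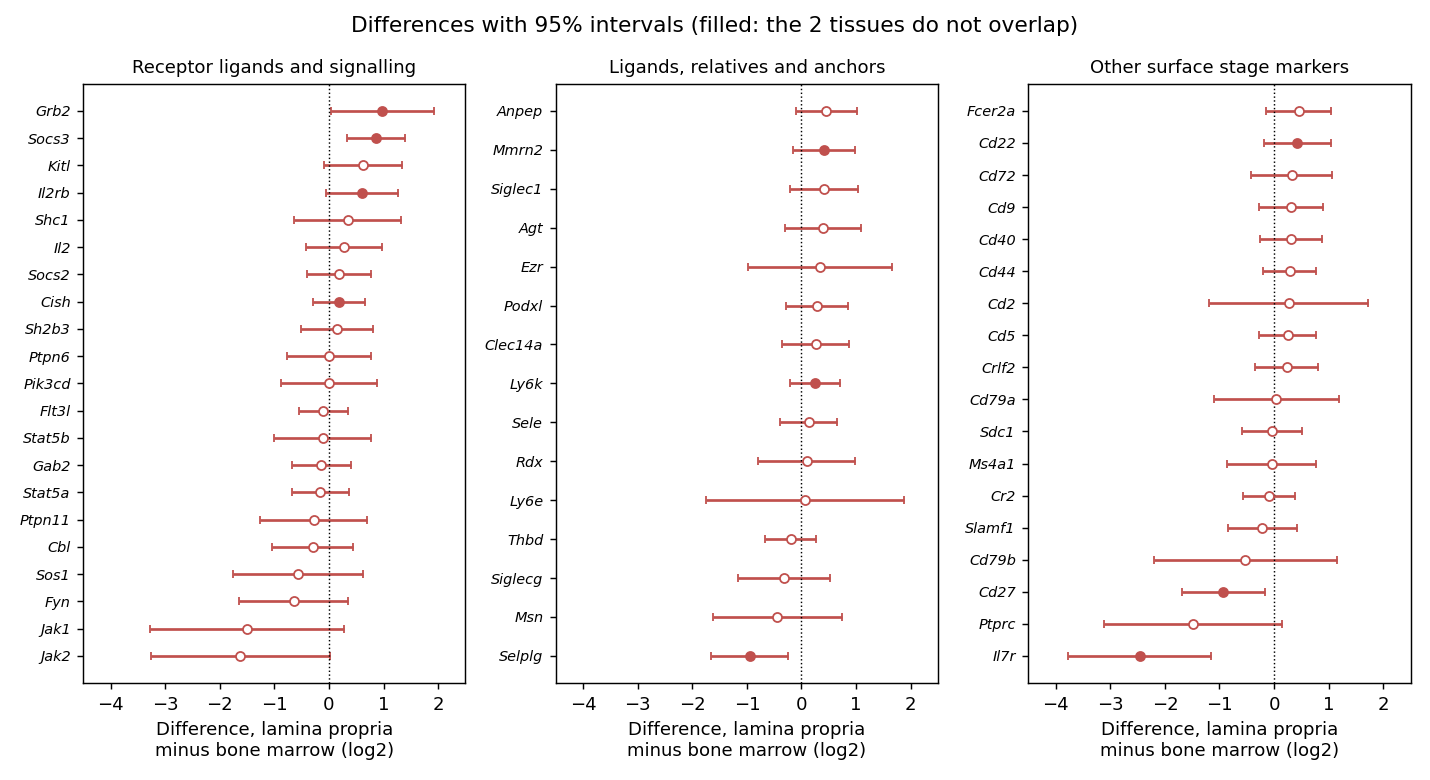
Differences between the tissues (horizontal axis, log2, lamina propria minus bone marrow) with 95% intervals from limma for the measured genes of the 3 lists, with filled points where the tissues did not overlap. Il7r, Cd27 and Selplg lay to the left without overlap and Grb2 and Socs3 to the right.

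Markers of further cell types that carry some of the 10 proteins were measured beside them. Most of these markers were dim, and genes of like mean level themselves had positive differences, so each list's median is given with the median of its genes' like. Of all genes, 67.6% had a positive and 32.4% a negative difference, and 14.8% were higher and 7.27% lower without overlap. Mast cells carry KIT, and 7 of 8 mast cell markers had a positive difference, with a median of 0.315 against 0.319 for their like. Their mean level was 4.35 to 4.85 in the lamina propria pools and 4.33 to 4.49 in the marrow pools. Cma1, a mast cell protease, and Gata2, a transcription factor of mast cells and progenitors, were higher without overlap, at 0.46 and 0.28, and the protease Cpa3 differed by -0.04. Cells of the intestinal epithelium carry the Enpep enzyme and CD24. All 8 epithelial markers had a positive difference, with a median of 0.40 against 0.33 for their like. Their mean level was 5.20 to 5.56 in the lamina propria pools and 4.91 to 4.99 in the marrow pools. In lamina propria pool 3 their median lay 0.27 above the marrow mean. Cdx1 and Epcam were higher without overlap, at 0.76 and 0.46. Progenitors carry KIT, FLT3 and CD34, and of 7 of their markers 4 were positive and 3 negative, with Cd48 lower without overlap, at -1.47 (limma adjusted p = 0.284), and Gata2 higher without overlap. Granulocyte and monocyte markers had a median of -0.12 with 4 of 9 positive, against 0.30 for their like. Dendritic cell and erythroid markers were all positive, with medians of 0.34 over 6 and 0.30 over 5, against 0.32 and 0.26. The bright B lineage markers had 9 of 10 negative and a median of -0.38, against -0.34 for genes of like level. Of the 67 measured markers of all these cell types, limma called 0, and 9 had an unadjusted p under 0.05, against 13.7% of all genes, a share near the background. The part of other cells in the values of the 10 genes was not tested.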

How the data were processed

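RNA of RAG2-GFP+ cells was hybridised to 6 arrays, after amplification from 4.5 to 47 ng, per the labels' protocols. The deposited values are log2 signals, and the submitters' processing notes name RMA and Affymetrix Expression Console 1.3.0.187, with no settings given in the sources used here. RMA in general equalises probe signals between arrays before probes are summarised; the deposited probe set values still differed in spread. Values were used as deposited. Of 35556 probe sets, 21789 had 1 gene symbol in the platform's table, giving 19938 genes (the probe set with the highest mean over all arrays); the rest were not used. Tissues were compared in limma 3.58.1 (R 4.3.3; lmFit, eBayes, no block, two-sided, Benjamini-Hochberg over all genes, threshold 0.05) and the fit was tested on simulated data. P-values set the difference between the tissues against the spread between pools. The fit assumes the same variance in both tissues, while the median SD over all genes was 0.39 in the lamina propria and 0.17 in the marrow. The members and lists were chosen with earlier results of these data known. All 10 members are named; of each pathway list, the rule named up to 4 genes past the threshold or, with none, the 2 with the largest differences without overlap in each direction, and the 2 genes with the pattern nearest to each member's. Other genes and the promoters shown were picked after their values were seen. Alternatives tried were a block for the pool number, leaving out dim genes, 2 scalings, trend with robust variances, array weights, averaged probe sets and left-out arrays. Figures were drawn with matplotlib 3.10.9.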

Additional observations from a re-analysis of the deposited data

How the results depend on the processing

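In the comparison as reported, no gene of the whole table passed in limma (0 higher, 0 lower), and 2728 had an unadjusted p under 0.05. The count was 2 higher and 14 lower with the pool number as a block, 2 and 9 with each array centred on its 75th percentile, 1 and 39 with an intensity trend and robust variances, and 3368 and 2218 with array weights. It ran from 0 to 4806 higher and 0 to 2416 lower with 1 array left out. No marker was called in these settings except Cd93 and Cd34, 2 of 10, with array weights, which gave lamina propria pool 3 a weight of 0.15, and without pool 3 (0 to 2 over all left-out arrays). Of all genes, 16.9% were called higher and 11.1% lower with array weights, and 24.1% and 12.1% without pool 3. The median difference of the markers was -0.611 with array weights and ran from -0.604 (without lamina propria pool 3) to 0.077 (without pool 1) with 1 array left out. From -0.196 as reported it went to -0.001 with 75th percentile centring, -0.379 with the filter on dim genes and 0.057 without lamina propria pools 1 and 2.

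Same-numbered pools had correlated deviations of 0.13, 0.05 and 0.23 across genes, and differently numbered pools of -0.21 to 0.13. The labels do not say that the numbers pair the pools. With 3 pools per tissue these correlations cannot decide it. The block changed no call among the markers (Cd93 had a limma adjusted p of 0.103 with it). Of the listed genes, 1 B lineage gene, Rag2, was called with the block, 1 with 75th percentile centring and 1 with trend and robust variances. With array weights, limma called 6 of 21 growth factor receptor partners and 3 of 15 adhesion and enzyme marker partners. It called 2 of 18 further stage markers, 3 of 10 B lineage, 4 of 8 T cell and 1 of 8 mast cell markers. It also called 5 of 7 endothelial, 2 of 8 epithelial, 1 of 9 granulocyte or monocyte and 2 of 7 progenitor markers. Of all genes, 16.9% were called higher and 11.1% lower in that setting. With 1 array left out the counts of these lists, in the same order, ran from 0 to 6, 0 to 5, 0 to 3, 0 to 3, 0 to 4, 0 to 2, 0 to 5, 0 to 1, 0 to 2 and 0 to 3. For the 6 dendritic and 5 erythroid markers they ran from 0 to 1 each. The highest counts were those without lamina propria pool 3, where 36.2% of all genes were called.

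Signs turned for 5 markers. Kit was at -0.564 with array weights and ran from -0.490 to 0.527 with 1 array left out, Flt3 from -0.003 to 0.470, Enpep from -0.777 to 0.276 and Cd24a from -0.271 to 0.009. Cd24a was at 0.029 with 75th percentile centring, which raised the median difference of all genes from 0.222 to 0.418. Without lamina propria pools 1 and 2, Enpep was at 0.876 and Il2ra at 0.183. Cd93, Cd34, Bst1, Spn and Ly6d kept their sign in every setting in which they were measured. The filter on dim genes left out Flt3 and Cd34. The cause of these changes was not tested.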
